A study of Capsella grandiflora and Capsella rubella and Capsella orientalis with 27 samples.

Results

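Flower buds pass from a stage at which their organs grow by cell division to one at which cells expand and the flower matures. The comparison reported here asks for which genes this step differed between Capsella orientalis, which fertilises itself, and Capsella grandiflora, which is outcrossing. For each gene the stage change was the log2 fold of expanding over dividing buds, and the measured quantity was the difference of stage changes, C. orientalis minus C. grandiflora. It was chosen by library title and rests on 12 of the series' 27 libraries: 3 of C. orientalis expanding and maturing buds, 3 of C. orientalis dividing buds, 3 of C. grandiflora expanding and maturing buds and 3 of C. grandiflora dividing buds. Buds of C. rubella, another selfing species, gave 6 libraries that are used here to group genes and to set values beside them. They and the other libraries of the series, from seedlings of the same species aged 10 days, also entered the shared filter, scaling and estimate of spread. The labels name no accession, treatment or growth condition and do not tell whether each replicate is a different plant. Spread between libraries, which is what the p-values are based on, may thus be technical.

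Lineages that have turned to self-fertilisation often bear smaller petals and less pollen than their outcrossing relatives, a set of traits known as the selfing syndrome. In dividing buds of plants of the mustard family the organ primordia proliferate and the anthers go through meiosis. In expanding buds the petals and filaments elongate by cell enlargement and the pollen fills and matures. Reads come from whole buds, so fewer cells of a type and less RNA per cell cannot be told apart.

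Messenger RNA was measured as read counts per gene, with 25257799 to 40909319 counts on genes in each of the 12 libraries. Replicates correlated at r of 0.992 to 0.995 on log2 CPM, the counts scaled to a common library total, and no replicate pair agreed within sampling noise. The first principal component of the 12 libraries held 60.6% of the variance and separated the bud stages, the second held 30.7% and separated the species, and the next held 4.99%. The genes carry identifiers of the Carubv form with no names, and no table pairing them with names was used. The tissue labels were therefore not checked against marker genes, and genes are given by identifier alone. A factor that multiplies a gene's counts alike at both stages of a species cancels in the difference of stage changes, whereas a gene with almost no counts in a species shows no stage change there.

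The bud-stage change differed between the species for many genes, most of them with the weaker change in C. orientalis. Of 23186 genes tested, 8050 (34.7%) had a Benjamini-Hochberg adjusted p under 0.05 by the quasi-likelihood test of edgeR. The difference was positive for 3907 genes (16.9%) and negative for 4143 (17.9%). This near balance of directions depends on scaling: the positive share of the calls was 48.5% as reported, 65.9% when libraries were scaled by their totals alone and 59.4% in a fit of the 12 libraries alone. Of the called genes, 3071 differed at least 2-fold, 1199 of them positive and 1872 negative. For 7086 of the called genes (88.0%) every combination of an expanding and a dividing library gave a change beyond every such combination in the other species, which held for 40.2% of all genes tested in either direction.

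Fewer genes changed between the bud stages in C. orientalis, and by less. There 13684 genes were called between the stages (59.0% of those tested), 6651 (28.7%) rising and 7033 (30.3%) falling toward expanding buds. In C. grandiflora 16702 were called (72.0%), with 8326 (35.9%) rising and 8376 (36.1%) falling. Over all tested genes the median absolute stage change was 0.47 on the log2 scale in C. orientalis and 0.70 in C. grandiflora. Most changes had the same direction in both species: of 11634 genes called in both, 11113 (95.5%) had the same sign, which is 81.2% of the C. orientalis calls and 66.5% of the C. grandiflora calls. Of those 11113 genes, 7932 (71.4%) had the smaller absolute change in C. orientalis. Across the 23186 genes, which are not independent replicates, the stage changes correlated at Pearson's r = 0.79 and Spearman's rho = 0.72.

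**Figure D1:**
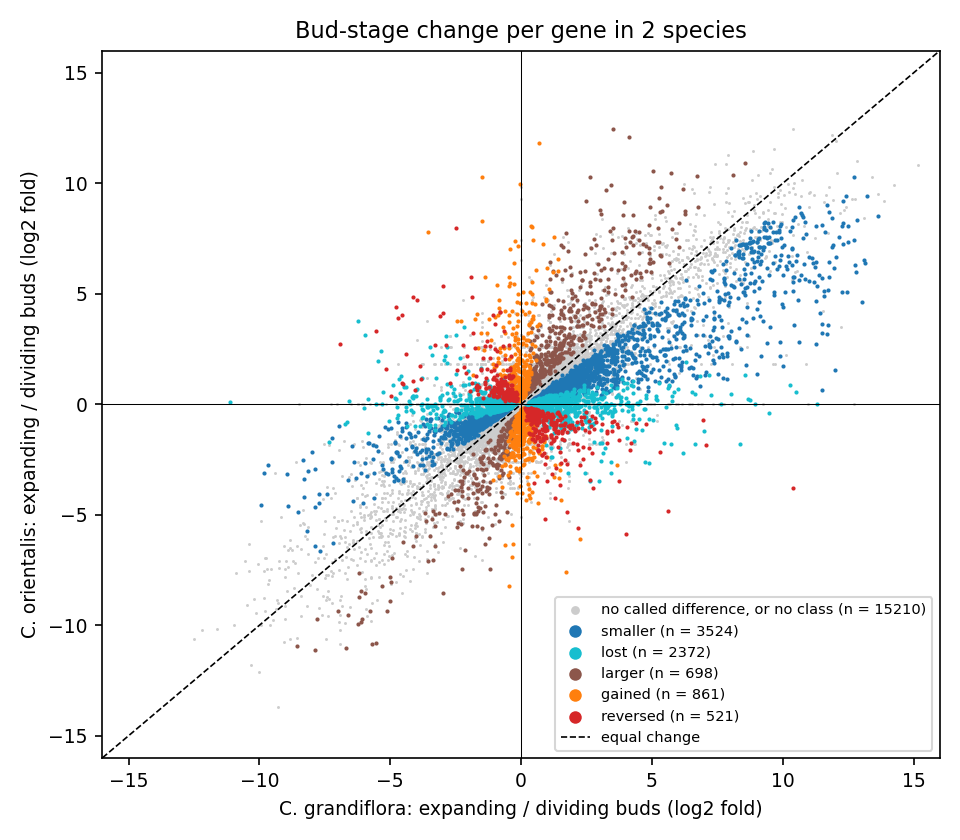
Each point is a gene, with its expanding over dividing bud log2 fold in C. grandiflora on the x axis and in C. orientalis on the y axis; colours mark the classes of genes with a called difference and the dashed line is an equal change. The smaller class lies between the dashed line and the horizontal axis and the lost class is spread along that axis, crossing it, and together they hold 5896 of the 8050 called genes.

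The called genes were sorted by how the stage change itself was called in each species. A change called only in C. orientalis was classed as gained and one called only in C. grandiflora as lost. A change called in both was classed as reversed where the signs differed, and otherwise as larger or smaller in C. orientalis. The smaller class held 3524 genes (43.8%), the lost class 2372 (29.5%), the gained class 861 (10.7%), the larger class 698 (8.67%) and the reversed class 521 (6.47%), while 74 genes had no called stage change in either species. Smaller and lost changes together made up 5896 of the 8050 (73.2%), and gained and larger ones 1559 (19.4%). Among large differences the classes were more even. At 2-fold or more, 1847 of 3071 genes (60.1%) were smaller or lost, 841 (27.4%) gained or larger and 365 (11.9%) reversed, and at 4-fold or more the smaller and lost share of 1494 genes was 57.5%. These classes are built from calls, so a lost change can be one that is merely under the threshold in C. orientalis. With the further demand of a log2 change of at least 1 in the species that has it and under 0.5 in the other, 305 genes were gained and 615 lost.

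**Figure D2:**
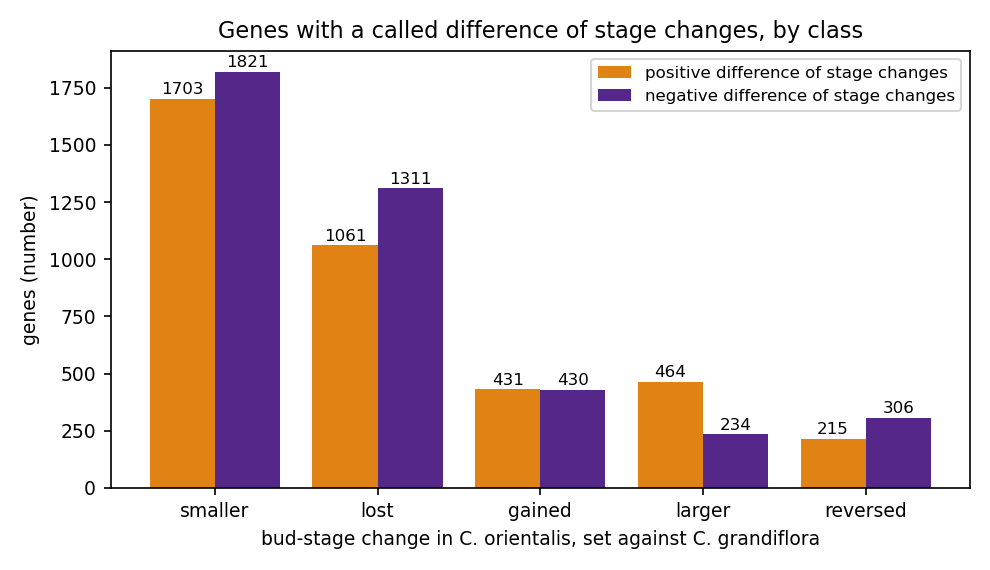
Bars give the number of genes with a called difference in each class, split by the sign of the difference of stage changes (C. orientalis minus C. grandiflora). The smaller and lost bars are the tallest in both directions, from 1061 to 1821 genes, and each bar of the other classes is at most 464.

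Changes that were smaller in C. orientalis occurred on both sides. For 1821 genes that rose toward expanding buds in both species, the median stage change was 0.96 in C. orientalis and 1.96 in C. grandiflora. For 1703 genes that fell in both, it was -0.54 in C. orientalis and -1.15 in C. grandiflora. Which of these sides held more genes was set by the scaling, with 1167 weaker rises and 3069 weaker falls under library totals, and 1744 and 2512 in a fit of the 12 libraries alone. The weaker rises took 14.9% ± 0.260 of counts in C. orientalis expanding buds and 23.9% ± 0.788 in C. grandiflora expanding buds (SD, n = 3 each). In dividing buds the same genes took 6.78% ± 0.0931 in C. orientalis and 6.31% ± 0.201 in C. grandiflora. The weaker falls took 7.58% ± 0.5002 in C. orientalis and 4.43% ± 0.338 in C. grandiflora expanding buds, and 12.3% ± 0.114 in C. orientalis and 12.0025% ± 0.229 in C. grandiflora dividing buds (SD, n = 3 each).

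Among genes that met the conditions on level, counts and overlap given in the methods, the largest weakened rise belonged to Carubv10027783m.g. Its 3 C. orientalis libraries had 384, 372 and 427 CPM in expanding buds and 11.6, 12.4 and 10.6 CPM in dividing buds. In C. grandiflora the values were 741, 849 and 953 CPM in expanding buds and 0.293, 0.106 and 0.105 CPM in dividing buds. The gene was thus at its highest in expanding buds of either species, but C. orientalis dividing buds already held a level that no C. grandiflora dividing library approached. The stage change was 5.09 (SE 0.18) in C. orientalis and 12.27 (SE 0.27) in C. grandiflora on the log2 scale, a difference of -7.18 (SE 0.32, Benjamini-Hochberg adjusted p = 3.96e-14). Its C. grandiflora dividing group held only 21 counts. C. rubella had 276, 370 and 318 CPM in expanding and 0.154, 0.122 and 0.0499 CPM in dividing buds.

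For the weakened falls the corresponding gene was Carubv10012156m.g. It had 12.6, 9.65 and 8.94 CPM in C. orientalis expanding buds and 19.7, 17.9 and 23.3 CPM in C. orientalis dividing buds. C. grandiflora expanding buds had 0.130, 0.147 and 0.0770 CPM, and C. grandiflora dividing buds 16.1, 13.0 and 16.9 CPM. Dividing buds of the species lay close together, and the expanding buds of C. orientalis stood apart from those of C. grandiflora. Its stage change was -0.96 (SE 0.16) in C. orientalis and -6.95 (SE 0.28) in C. grandiflora, whose expanding group held only 11 counts. The difference was 5.98 (SE 0.35, Benjamini-Hochberg adjusted p = 2.34e-11). In seedlings, which took no part in the choice, the gene averaged 6.27 ± 1.30 CPM in C. orientalis and 0.189 ± 0.0831 CPM in C. grandiflora (SD, n = 3 each). C. rubella buds were all under 1 CPM, at 0.0581, 0.0583 and 0.0724 CPM in expanding and 0.860, 0.407 and 0.723 CPM in dividing buds.

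Stage changes that were lost showed the same signs in C. grandiflora but a median near 0 in C. orientalis. The 1311 rises lost had a median stage change of 0.01 in C. orientalis and 0.78 in C. grandiflora, and the 1061 falls lost had -0.04 in C. orientalis and -0.70 in C. grandiflora. The order of these counts also turned with scaling, to 832 lost rises and 1433 lost falls under library totals and 1073 and 1545 in a fit of the 12 libraries alone. Of the 2372 lost genes, 320 stayed under 1 CPM on average at both stages in C. orientalis, and 173 did so in C. grandiflora, beside 4200 and 3405 of the 23186 tested genes in the same order.

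Carubv10027790m.g gave the largest lost rise among genes that met the same conditions. C. orientalis held 0.221, 0.432 and 0.362 CPM in expanding and 0.195, 0.248 and 0.249 CPM in dividing buds. C. grandiflora held 262, 145 and 230 CPM in expanding and 0.0732, 0.170 and 0.184 CPM in dividing buds. Of these 12 libraries only the 3 of C. grandiflora expanding buds were above 1 CPM. The difference of stage changes was -9.93 (SE 1.01, Benjamini-Hochberg adjusted p = 5.48e-08), though the low groups held only 31 counts in C. orientalis expanding, 21 in C. orientalis dividing and 18 in C. grandiflora dividing buds. C. rubella expanding buds had 39.7, 32.5 and 36.6 CPM.

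The largest lost fall under these conditions was that of Carubv10022745m.g, a gene found mainly in C. grandiflora dividing buds. C. orientalis had 1.62, 0.931 and 0.906 CPM in expanding and 1.04, 0.712 and 0.533 CPM in dividing buds, sets that overlapped. C. grandiflora had 1.01, 1.55 and 1.92 CPM in expanding and 62.6, 57.2 and 51.3 CPM in dividing buds. The stage change was 0.57 (SE 0.30) in C. orientalis and -5.29 (SE 0.22) in C. grandiflora, which differed by 5.86 (SE 0.38, Benjamini-Hochberg adjusted p = 3.30e-11). C. rubella dividing buds, at 11.97, 9.77 and 12.02 CPM, lay between the other two species.

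Gained changes were evenly split, with 431 rises and 430 falls that were called in C. orientalis and not in C. grandiflora, but 546 rises and 393 falls in a fit of the 12 libraries alone. The rises gained had a median stage change of 0.87 in C. orientalis and -0.04 in C. grandiflora, and the falls gained had -0.95 in C. orientalis and 0.07 in C. grandiflora. At both stages 147 of the 861 genes averaged under 1 CPM in C. orientalis, and 170 in C. grandiflora, against the same 4200 and 3405 of all tested.

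Carubv10012161m.g showed the largest gained rise among genes that met the conditions on level, counts and overlap. It had 6.38, 7.72 and 6.01 CPM in C. orientalis expanding buds and 0.519, 0.496 and 0.355 CPM in C. orientalis dividing buds. C. grandiflora expanding buds had 0.882, 0.847 and 0.924 CPM, within the range of its dividing buds at 0.927, 0.575 and 0.421 CPM. The C. orientalis expanding libraries stood above the other bud libraries of both species. C. rubella rose as well, with 3.08, 2.74 and 2.27 CPM in expanding and 0.430, 0.244 and 0.374 CPM in dividing buds. The stage change was 3.85 (SE 0.26) in C. orientalis and 0.46 (SE 0.27) in C. grandiflora, a difference of 3.40 (SE 0.38, Benjamini-Hochberg adjusted p = 1.84e-06).

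Among gained falls that met the conditions Carubv10006733m.g had the largest difference, -2.97 (SE 0.34, Benjamini-Hochberg adjusted p = 6.34e-07). Its C. orientalis libraries had 1.22, 0.965 and 0.785 CPM in expanding and 6.42, 4.49 and 6.25 CPM in dividing buds. Its C. grandiflora libraries had 13.1, 15.5 and 16.3 CPM in expanding and 8.66, 9.81 and 14.9 CPM in dividing buds. Expanding and dividing buds did not overlap in C. orientalis, as the choice of named genes required, and did overlap in C. grandiflora. In C. rubella the gene rose toward expanding buds instead, with 9.18, 12.3 and 10.8 CPM there and 2.92, 1.83 and 3.62 CPM in dividing buds.

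Changes that were larger in C. orientalis were mostly rises. For 464 genes that rose in both species the median stage change was 2.81 in C. orientalis and 1.44 in C. grandiflora. For 234 genes that fell in both it was -2.93 in C. orientalis and -1.23 in C. grandiflora. Larger rises outnumbered larger falls under every scaling tried, at 450 to 587 against 232 to 262. The larger rises had a median of 1.79 CPM in C. orientalis dividing buds and 4.88 CPM in C. grandiflora dividing buds, while their expanding bud medians were 17.8 and 17.98 CPM in the same order. The larger falls had a median of 0.669 CPM in C. orientalis expanding buds and 4.65 CPM in C. grandiflora expanding buds.

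Carubv10016612m.g was the largest of the strengthened rises that met the conditions. C. orientalis had 20.2, 16.8 and 13.4 CPM in expanding and 0.162, 0.186 and 0.213 CPM in dividing buds. C. grandiflora had 36.6, 37.3 and 33.6 CPM in expanding and 20.1, 15.5 and 13.9 CPM in dividing buds. Only the C. orientalis dividing libraries fell under 1 CPM, and C. rubella was even across the stages, at 21.7, 19.9 and 22.0 CPM in expanding and 22.4, 20.2 and 20.2 CPM in dividing buds. The stage change was 6.46 (SE 0.28) in C. orientalis and 1.12 (SE 0.16) in C. grandiflora, a difference of 5.34 (SE 0.35, Benjamini-Hochberg adjusted p = 3.51e-11). Its C. orientalis dividing group held only 17 counts.

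The strengthened fall of Carubv10020319m.g set C. orientalis expanding buds, at 0.369, 0.200 and 0.121 CPM, apart from C. orientalis dividing buds, at 6.91, 5.64 and 7.67 CPM. C. grandiflora had 3.11, 4.16 and 4.08 CPM in expanding and 5.32, 5.09 and 6.14 CPM in dividing buds. The stages did not overlap in either species, which the choice of named genes required, and the fall was far deeper in C. orientalis. The difference was -4.34 (SE 0.40, Benjamini-Hochberg adjusted p = 2.81e-08), from 20 counts in the C. orientalis expanding group. In C. rubella the gene was higher in expanding buds, at 2.76, 2.88 and 2.92 CPM, than in dividing buds, at 1.81, 1.18 and 1.90 CPM.

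Reversed changes were the smallest class, yet had large differences: 365 of the 521 genes were at least 2-fold apart and 206 at least 4-fold. Over all tested genes 2.25% changed in opposite directions with both calls. In 215 genes C. orientalis rose and C. grandiflora fell, with median stage changes of 0.68 and -0.69 in that order. In 306 genes C. orientalis fell and C. grandiflora rose, with medians of -0.73 and 0.77. The second kind was the more frequent as reported, with RLE size factors, with DESeq2 and, narrowly, with library totals (286 against 282), but the first kind was so in a fit of the 12 libraries alone (349 against 308).

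Carubv10010867m.g had the largest difference among genes that fell in C. orientalis, rose in C. grandiflora and met the conditions. C. orientalis had 8.25, 7.25 and 5.71 CPM in expanding and 10.9, 12.6 and 10.8 CPM in dividing buds. C. grandiflora had 32.5, 31.7 and 30.7 CPM in expanding and 0.293, 0.0426 and 0.448 CPM in dividing buds. The reversal therefore joined a small fall in C. orientalis, of -0.70 (SE 0.20), to a large rise in C. grandiflora, of 6.97 (SE 0.29). The difference was -7.66 (SE 0.35, Benjamini-Hochberg adjusted p = 6.35e-14), with 31 counts in the C. grandiflora dividing group. In C. rubella it had 8.92, 11.2 and 11.1 CPM in expanding buds and 3 counts over the 3 dividing libraries.

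In the other direction Carubv10019509m.g had 26.2, 26.4 and 25.1 CPM in C. orientalis expanding and 19.9, 19.0 and 20.1 CPM in C. orientalis dividing buds. C. grandiflora had 0.233, 0.442 and 0.192 CPM in expanding and 9.64, 7.51 and 9.69 CPM in dividing buds. The gene was near constant in C. orientalis, with a rise of 0.39 (SE 0.15), and fell in C. grandiflora, with -4.95 (SE 0.24). The difference was 5.35 (SE 0.29, Benjamini-Hochberg adjusted p = 1.81e-12), with 26 counts in the C. grandiflora expanding group. Seedlings showed the same contrast between species as expanding buds, with 15.8 ± 1.84 CPM in C. orientalis and 0.108 ± 0.0153 CPM in C. grandiflora (SD, n = 3 each). C. rubella also fell toward expanding buds, with 0.320, 0.350 and 0.121 CPM there and 3.32, 3.13 and 3.09 CPM in dividing buds.

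**Figure D3:**
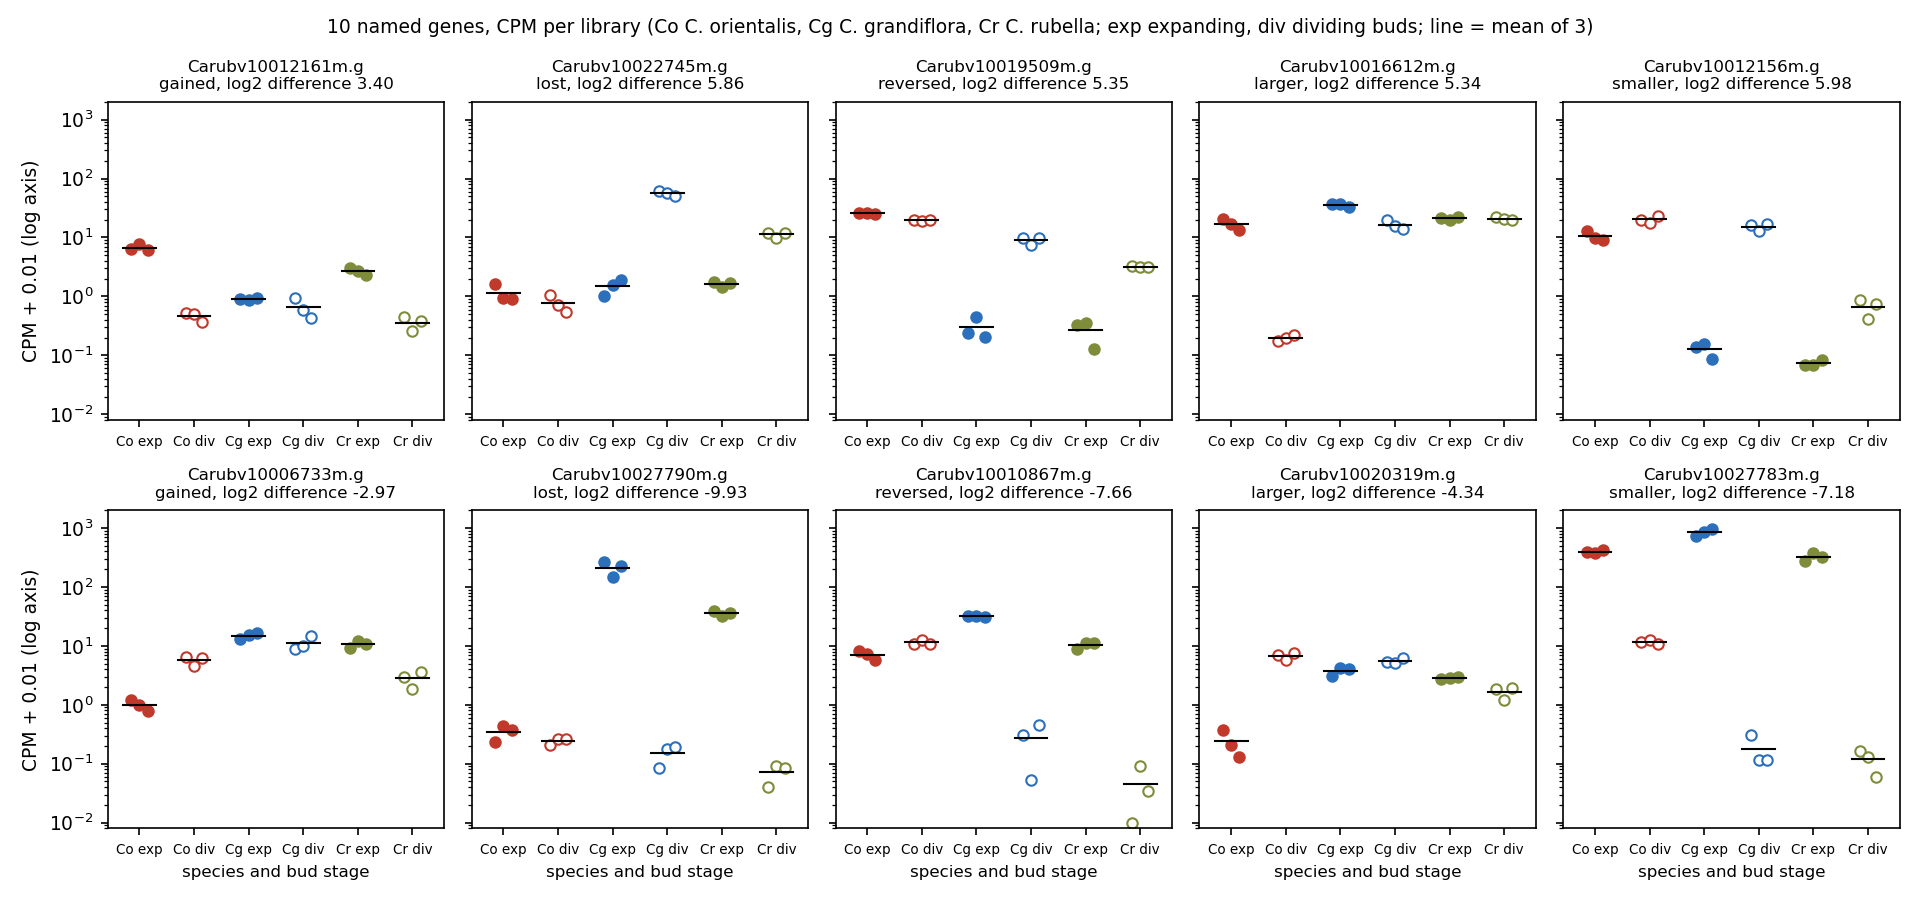
Points are libraries, with CPM plus 0.01 on a log axis, for the gene with the largest positive (top row) and the largest negative (bottom row) difference of stage changes in each class. Only genes that met the conditions on level, counts and overlap were ranked. Filled points are expanding buds, open points dividing buds, and lines are means of 3 libraries. In the lost column C. orientalis stays near one level across the stages, at 1.15 CPM in expanding and 0.761 CPM in dividing buds for Carubv10022745m.g, while C. grandiflora differs between the stages, at 1.49 CPM in expanding and 57.0 CPM in dividing buds.

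By arithmetic the difference of stage changes equals the species difference in expanding buds minus that in dividing buds, so it can be set beside the species gap at each stage. Of the 8050 called genes, 2717 (33.8%) were called between the species in expanding buds only, and 1456 (18.1%) in dividing buds only. Another 2634 were called with the same sign at both stages, 1136 (14.1%) with opposite signs, and 107 at neither. The species were called apart in expanding buds for 80.6% of these genes, beside 67.8% of all tested, and in dividing buds for 64.9%, beside 59.3% of all tested. The gap between the species was the wider in expanding buds for 64.4% of the called genes and for 59.1% of all tested. The larger rises ran the other way: their gap was the wider in expanding buds for 31.7% of 464 genes. They were lower in C. orientalis dividing buds for 324 genes and higher for 38, beside 29.3% and 30.1% of all tested. Falls that were smaller in C. orientalis had the wider gap in expanding buds for 78.4% of 1703 genes, where 1391 were higher and 76 lower in C. orientalis, beside 32.7% higher and 35.1% lower of all tested. Rises that were smaller were more mixed: 1344 of 1821 were lower in C. orientalis expanding buds, and 889 were higher in C. orientalis dividing buds. These directions follow in part from the class rule. A positive difference requires C. orientalis to stand relatively higher in expanding buds than in dividing buds, and a negative one the reverse. A called difference also favours a called gap at some stage, so all tested genes are not a like background here.

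Genes were also grouped by the stage contrast of C. rubella, whose means come from its own libraries while filter, scaling and spread were shared with the 12 compared. There 14902 genes (64.3%) were called between the stages. Genes called between the C. rubella bud stages with at least a 2-fold change numbered 4060 for higher in expanding buds and 2049 for higher in dividing buds. Both groups changed less in C. orientalis than in C. grandiflora. Picking genes by their change in C. rubella favours whichever species is more like it in stage change. Over all tested genes the difference from C. rubella had an SD of 1.17 log2 units for C. grandiflora and 1.49 for C. orientalis. How far this choice shaped the values of the groups was not tested. The expanding-preferential genes had a median stage change of 1.63 in C. orientalis and 2.27 in C. grandiflora, and the dividing-preferential genes had -1.56 in C. orientalis and -2.22 in C. grandiflora. Of the expanding-preferential genes 1631 (40.2%) had a called negative difference and 390 (9.61%) a positive one, beside 17.9% and 16.9% of all genes tested. Of the dividing-preferential genes 621 (30.3%) had a positive difference and 130 (6.34%) a negative one. Their median differences of stage changes were -0.64 and 0.52, and the median over all tested genes was -0.0018. Under library totals all genes shifted by 0.15 and these medians were -0.53 and 0.65.

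The pattern ran across the range of stage changes. Where C. rubella changed by more than 4 log2 units toward expanding buds (1401 genes), the median change was 4.86 in C. orientalis and 5.95 in C. grandiflora. Where it changed by 1 to 2 units (1850 genes), the medians were 0.83 in C. orientalis and 1.29 in C. grandiflora. Among the 1373 genes that fell by 1 to 2 units in C. rubella they were -1.02 in C. orientalis and -1.55 in C. grandiflora. Genes with a C. rubella change within 0.5 units of 0, 11027 in number, had a median of -0.06 in either species, and positive and negative differences were called for 13.5% and 12.6% of them.

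**Figure D4:**
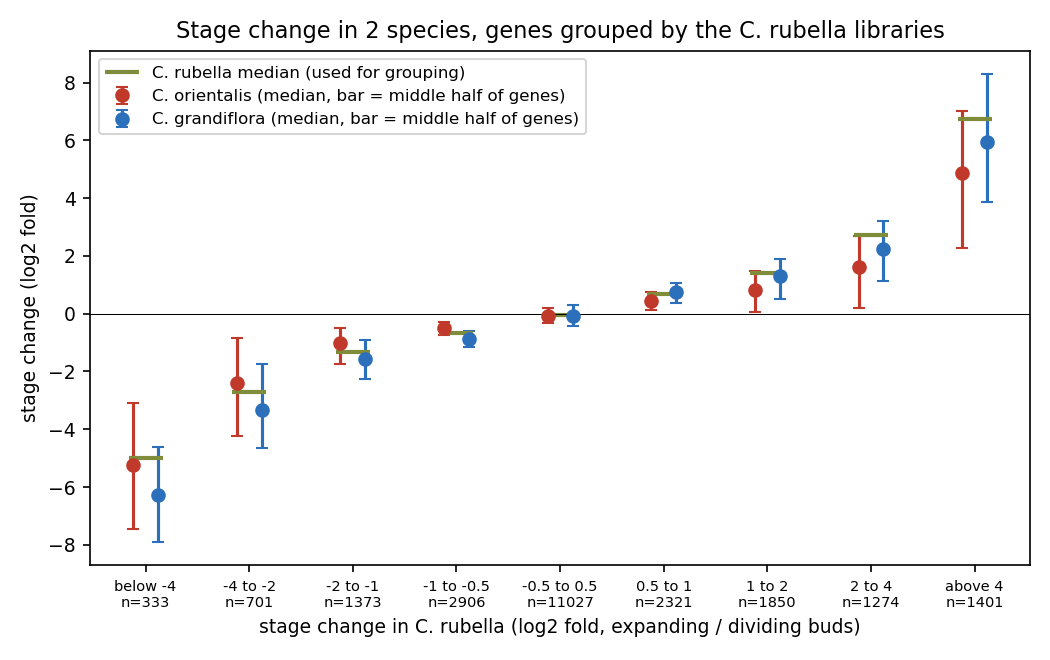
Genes are grouped along the x axis by their stage change in C. rubella, and points give the median log2 stage change in C. orientalis (left of each pair) and C. grandiflora (right), with bars from the lower to the upper quartile. The C. orientalis median lies nearer 0 than the C. grandiflora median in each group beyond 0.5 log2 units on either side, as at 4.86 and 5.95 in the rightmost group.

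The same gene groups, taken as a share of all counts on tested genes, spanned a narrower range in C. orientalis than in C. grandiflora. The 4060 expanding-preferential genes held 18.1%, 18.8% and 18.7% of counts in C. orientalis expanding buds, against 27.4%, 26.6% and 28.0% in C. grandiflora expanding buds. In dividing buds they held 7.08%, 7.13% and 7.15% in C. orientalis and 5.38%, 5.31% and 6.02% in C. grandiflora. The ratio of the expanding to the dividing mean was 2.60 in C. orientalis and 4.91 in C. grandiflora, with C. orientalis lower at the one stage and higher at the other. The 2049 dividing-preferential genes held 1.58% ± 0.105 in C. orientalis and 0.998% ± 0.0851 in C. grandiflora expanding buds (SD, n = 3 each). In dividing buds they held 4.49% ± 0.102 in C. orientalis and 6.39% ± 0.327 in C. grandiflora (SD, n = 3 each). No library of a species overlapped those of the other in any of these 4 comparisons, each with an exact two-sided permutation p = 0.1, the smallest that 3 against 3 libraries can give.

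**Figure D5:**
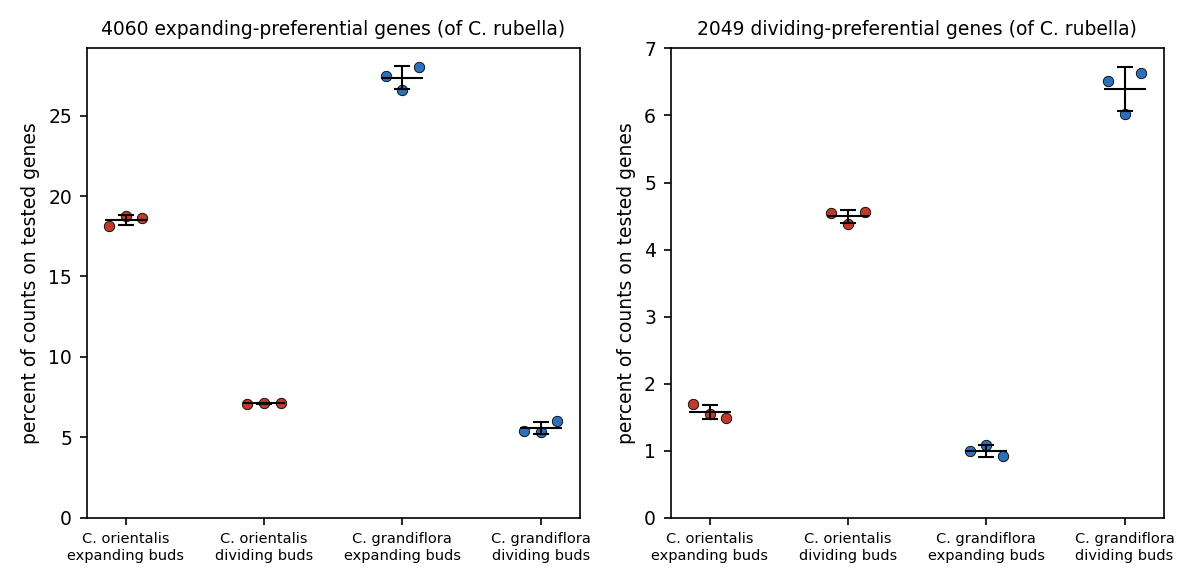
Points are libraries and lines with bars are means ± SD of 3, for the percent of counts on tested genes taken by genes that C. rubella expressed at least 2-fold more in expanding buds (left) or in dividing buds (right). In both panels the C. orientalis stages stand closer to each other than the C. grandiflora stages, as on the left, at 18.5% in expanding and 7.12% in dividing buds of C. orientalis against 27.4% and 5.57% in C. grandiflora.

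In C. rubella, whose bud means were no part of the contrasts behind the classes but which shared their fit, most of the weakened changes were also called. Of 1821 rises that were smaller in C. orientalis, 1771 (97.3%) were called as rises in C. rubella. Of 1703 such falls 1634 (95.9%) were called as falls, beside 34.0% and 30.3% of all tested genes. All tested genes are not a like background here. The smaller class admits only genes called in the same direction in C. orientalis and C. grandiflora. The larger class has the same demand: 411 of its 464 rises (88.6%) rose and 143 of its 234 falls (61.1%) fell in C. rubella. Shares among all 5512 genes that rose and 5601 that fell in C. orientalis and C. grandiflora alike were not tested. The median C. rubella stage change was 1.43 for the smaller rises and -0.73 for the smaller falls, between the C. orientalis and C. grandiflora medians in each case. Of the lost changes, 897 of 1311 lost rises (68.4%) rose and 661 of 1061 lost falls (62.3%) fell in C. rubella. Among gained changes, 167 of 431 gained rises (38.7%) rose and 82 of 430 gained falls (19.1%) fell in C. rubella. Another 101 of these 430 genes rose. The share of gained rises that rose was near the 34.0% of all tested genes, and 30.3% of all tested fell. Among reversed genes, 168 of the 306 that fell in C. orientalis and rose in C. grandiflora rose in C. rubella (54.9%) and 25 fell (8.17%). Of the 215 reversed the other way, 75 fell in C. rubella (34.9%) and 38 rose (17.7%), beside 30.3% and 34.0% of all tested. By distance on the log2 scale, C. rubella was nearer to C. grandiflora for 50.2% of the 1821 smaller rises and 26.7% of the 1703 smaller falls, beside 51.96% of all tested genes. The share was 60.5% of the lost rises, 52.9% of the lost falls, 64.3% of the gained rises and 79.8% of the gained falls. It was 67.7% of the larger rises and 93.6% of the larger falls, 62.8% of the genes reversed to a rise in C. orientalis and 75.5% of those reversed to a fall. The classes were chosen on the C. orientalis and C. grandiflora values. That choice by itself tends to place C. rubella nearer to the species with the less extreme change, so these shares do not measure likeness between species.

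C. orientalis and C. grandiflora seedlings, aged 10 days, were called apart for 56.6% of the 8050 genes, beside 55.8% of all tested. The share was 59.6% among lost genes, 54.7% among smaller ones and 45.3% among the 234 larger falls. Of the 1703 genes whose fall was smaller in C. orientalis buds, 646 were higher and 330 lower in C. orientalis seedlings, beside 27.7% higher and 28.1% lower of all tested. Of the 1821 whose rise was smaller, 500 were higher and 451 lower. The same difference of stage changes was called for 5330 genes (23.0%) between C. rubella and C. grandiflora and for 5347 (23.1%) between C. orientalis and C. rubella, comparisons that share libraries with the one reported here.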

How the data were processed

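The deposited values are unnormalised counts of reads per gene. The submitters' processing notes name HTSeq and Trimmomatic. RNA was read as single reads of 50 cycles, per the labels' protocols. Not given in the sources used here are their versions, which aligner and genome build were used, the gene models and whether strand was counted. Reads of near-identical copies, and of genes that overlap on opposite strands, may therefore be mixed where they were counted. Reads listed as without a unique alignment, or as ambiguous, were not counted on genes. The files list 26521 genes and 5 summary rows that name no gene, which held 13.7% to 16.8% of listed reads in the 12 libraries and were left out. Reads without a unique alignment made up 6.60% to 8.33% in C. orientalis buds and 4.28% to 5.09% in C. grandiflora buds. Reads on no listed gene went the other way, at 3.87% to 4.18% in C. orientalis and 4.61% to 5.43% in C. grandiflora. Whether alignment affected genes with few counts in 1 species was not tested.

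The analysis used edgeR 4.0.16 in R 4.3.3. Its filterByExpr left 23186 genes, libraries were scaled by TMM, and all 27 libraries entered 1 quasi-likelihood fit with 9 groups, which leaves 18 residual degrees of freedom. p-values were adjusted by Benjamini-Hochberg over all genes tested and called under 0.05. A standard error is the log2 value divided by the square root of F and can be too small where a group holds few counts. CPM are TMM-scaled. Replicate pairs differed by 5.34 to 18.7 in chi-square per degree of freedom, so all were kept. Shares of counts were compared by exact permutation.

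Named genes had the largest positive and negative difference in each class, among genes of at least 5 CPM in 1 group, at least 10 counts in each bud group and no overlap of stages wherever the stage change was called. The comparison, classes and lists were chosen with earlier results of these data known. Of 28 gene lists written as name patterns, 0 matched an identifier, so none was used. Alternatives were RLE factors, library totals, DESeq2 1.42.0, no filter, the 12 libraries alone, a threshold of 0.01, a replicate block, other class and group rules, and leaving out each library.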

Additional observations from a re-analysis of the deposited data

Results flagged for a closer look

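The named genes are listed because their bud-stage change differed between C. orientalis and C. grandiflora by a test of the difference itself. That test called 8050 of 23186 genes, so passing it does not set the named genes apart. Among positive differences of stage changes on the log2 scale, Carubv10012156m.g had 5.98, Carubv10022745m.g 5.86, Carubv10019509m.g 5.35, Carubv10016612m.g 5.34 and Carubv10012161m.g 3.40. The negative ones were -9.93 for Carubv10027790m.g, -7.66 for Carubv10010867m.g, -7.18 for Carubv10027783m.g, -4.34 for Carubv10020319m.g and -2.97 for Carubv10006733m.g. They were picked as the largest of their classes among genes that met the conditions on level, counts and overlap. Their sizes are upper ends among those genes and not typical values. Genes outside the conditions were not ranked.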

How the results depend on the processing

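All 10 named genes stayed called with the same sign of the difference under each alternative run on them, but their classes were not followed. The C. orientalis rise of Carubv10019509m.g had a Benjamini-Hochberg adjusted p of 0.0252. The C. grandiflora fall of Carubv10020319m.g had one of 0.0304. At a threshold of 0.01 these genes would be classed as lost and gained in that order. The share of calls that were smaller or lost ranged from 73.1% to 75.1% over the fits and thresholds, and from 71.6% to 75.02% when a library was left out. Counts moved beyond 1.5 times with an adjusted p under 0.01, to 5208 called, 2402 of them positive, with 2088 smaller, 389 larger and 278 reversed, since a stricter threshold passes fewer genes. The size rule gave 305 gained and 615 lost. The median difference of the C. rubella groups was -0.53 and 0.65 under library totals, where all genes shifted by 0.15. With groups at 4-fold in C. rubella the expanding-preferential median was -0.94 and the gap in read share -7.37 percentage points, from fewer genes. DESeq2 called 8735 genes and shared 7943 with the reported 8050, and a fit of the 12 libraries alone called 9380 and shared 7445, in each case with the same sign. Leaving out 1 library gave 6850 to 7988 calls.

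Replicate numbers showed no pairing of the libraries: same-numbered expanding and dividing libraries had deviations correlated at -0.101 to -0.00791, and no library correlated best with its own number in all cases. With 3 libraries a group this cannot tell whether same-numbered libraries came from the same plants. With a replicate block 7731 genes were called, 7517 of them shared. Tests of name-based gene lists were not run because no identifier matched. Low counts limit the size of differences more than their sign: group levels near 0.2 CPM rest on about 20 counts.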

Other observations

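The called share was higher among genes of higher level. Of 3994 genes with a mean under 1 CPM over the 4 bud groups, 15.2% had a called difference of stage changes, against 33.6% of 6068 genes at 1 to 10 CPM, 41.1% of 11073 genes at 10 to 100 CPM and 41.4% of 2051 genes above that. The make-up of the calls also differed with level. Smaller and lost changes made up 48.4% of the calls under 1 CPM, 62.3% at 1 to 10 CPM, 80.3% at 10 to 100 CPM and 79.3% above. The median absolute difference among called genes was 3.30 on the log2 scale in the lowest group and 0.56 in the highest.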
